A study of Rattus norvegicus with 16 samples.

Results

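The 8 genes described here are genes of olfactory bulb neurons, followed in cortex and hippocampus tissue of old rats fed with or without curcumin: Meis2, Pbx3, Dlx5, Th, Doc2g, Tbx21, Cdhr1 and Eomes. A gene was taken where the annotation of a transcript cluster, the unit of the array that sums the probes of a gene, listed its symbol alone. Of the 27342 clusters, 15097 carry exactly 1 symbol, and 7 of the 8 genes have 1 such cluster each. Eomes has none, since its only cluster is annotated to Golga4 as well, so no value is given for it. The list was selected on these data: it was drawn up with the study's list of cortical genes changed after 6 weeks known, which names Meis2, Pbx3, Dlx5 and Cdhr1 (there under its older symbol Pcdh21). Values of the cortex at 6 weeks are therefore given as a description, without a test.

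The olfactory bulb is the first relay of smell and lies in front of the cortex. Sensory axons from the nose end there in round glomeruli, where they meet the dendrites of mitral and tufted cells, the excitatory neurons that send the signal on to the olfactory cortex. Local inhibitory neurons, the granule cells and the periglomerular cells, are renewed through life by neuroblasts that migrate forward from the wall of the lateral ventricle, and some periglomerular cells make dopamine. Meis2 and Pbx3 are partner homeodomain transcription factors of such interneurons, Dlx5 is a homeodomain factor of inhibitory neurons born in the ventral forebrain, and Th (tyrosine hydroxylase) makes the dopamine precursor. Mitral and tufted cells are marked by Cdhr1, a cadherin-related membrane protein, by Doc2g, of the double C2 domain family, and by the T-box factors Tbx21 and Eomes. These genes are not private to the bulb. Meis2 is also a gene of striatal neurons, Th of dopamine and noradrenaline neurons elsewhere in the brain, and Tbx21 of T and NK cells.

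The samples were 16 Affymetrix arrays of male Sprague-Dawley rats, 15 months of age when the experiment began, so that the rats of the longer diet were older when sampled. They form 8 groups of 2 arrays, given by tissue (cortex or hippocampus), diet (food with curcumin, or control food without it) and duration (6 or 12 weeks). Tissue of 3 rats was pooled for each RNA, so that pools and not rats are compared, and both tissues of a group came from the same rats. The labels call the 2 arrays of a group biological replicates and the design text speaks of duplicate arrays of an RNA sample, so p-values measure the spread between arrays, which may be technical. The sources used here do not say which part of the cortex was taken, where it was cut, or whether the bulb had been removed. In pooled tissue, fewer cells of a type and less RNA per cell cannot be told apart. Values are log2 expression levels, where a difference of 1 is a doubling, and levels are compared only within a gene. Array medians lay between 6.35 and 6.44, and the 2 arrays of a group correlated at r = 0.990 to 0.996 over all clusters, lowest in the control cortex at 6 weeks.

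Th, Cdhr1 and Doc2g were highest together on a single array, as described below, and their promoters are shown for that reason. Meis2, Pbx3 and Dlx5 were highest there too, but no promoter sequence was at hand for them. The sequences are RefSeq's for the rat assembly GRCr8, from 250 bases before to 50 bases after the listed start of the gene, written 5′ to 3′ on the gene's strand. They lie at chr1:207508169-207508468 (minus strand) for Th, at chr16:12883530-12883829 (minus strand) for Cdhr1 and at chr1:210725578-210725877 (plus strand) for Doc2g. The start used lies inside the gene span given here by 58 bases for Th and 960 for Doc2g. Capitals mark the motifs found.
Th: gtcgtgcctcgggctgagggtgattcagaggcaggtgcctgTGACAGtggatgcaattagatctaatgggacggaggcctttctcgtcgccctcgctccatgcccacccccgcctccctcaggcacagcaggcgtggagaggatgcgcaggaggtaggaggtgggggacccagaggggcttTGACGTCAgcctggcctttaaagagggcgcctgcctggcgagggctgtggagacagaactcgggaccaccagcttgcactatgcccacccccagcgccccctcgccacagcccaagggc
Cdhr1: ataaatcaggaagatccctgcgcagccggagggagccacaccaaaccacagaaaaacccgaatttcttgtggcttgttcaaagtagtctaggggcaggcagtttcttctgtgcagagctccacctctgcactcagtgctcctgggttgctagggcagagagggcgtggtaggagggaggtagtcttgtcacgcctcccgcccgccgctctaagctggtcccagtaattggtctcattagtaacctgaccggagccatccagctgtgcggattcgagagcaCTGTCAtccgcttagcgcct
Doc2g: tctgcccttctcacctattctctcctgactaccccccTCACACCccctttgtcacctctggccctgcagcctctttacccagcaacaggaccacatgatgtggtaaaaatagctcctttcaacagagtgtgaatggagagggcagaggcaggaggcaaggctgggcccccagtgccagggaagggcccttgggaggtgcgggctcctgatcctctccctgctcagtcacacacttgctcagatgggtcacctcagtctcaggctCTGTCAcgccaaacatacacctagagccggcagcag
In all, 5 motifs were searched on both strands. The Meis motif TGACAG, which reads CTGTCA on the other strand, was found in all 3 sequences, and in 19.0% of the 33469 promoters of this length. The cyclic AMP response element TGACGTCA was found in Th, and in 1.83% of promoters. The T-box motif GGTGTGA, which reads TCACACC on the other strand, was found in Doc2g, and in 3.83% of promoters. The homeodomain motif TAATTA (5.36% of promoters) and the TATA box TATAAA (14.2%) were in none of the 3. The promoters of Tbx21 and Eomes, not shown, were searched as well. Tbx21 held the Meis motif alone, and Eomes none of the 5 motifs. A match describes the letters of this window and was not tested for binding.

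Against all clusters the genes ranged from bright to dim. The mean level over 16 arrays was 7.99 for Meis2 (percentile 80.2 of all clusters), 7.17 for Pbx3 (percentile 65.5), 6.60 for Doc2g (54.4), 6.44 for Dlx5 (51.0), 6.17 for Cdhr1 (45.4), 6.16 for Th (45.1) and 5.31 for Tbx21 (25.4). In the hippocampus all 7 stayed within narrow limits. Their range over the 8 hippocampal arrays was 0.14 for Tbx21, 0.25 for Doc2g, 0.26 for Cdhr1, 0.28 for Dlx5, 0.39 for Th, 0.47 for Meis2 and 0.71 for Pbx3. Over the 8 cortical arrays the range was wider for every gene, from 0.31 for Tbx21 to 2.40 for Pbx3, 2.48 for Th and 2.73 for Cdhr1.

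**Figure D1:**
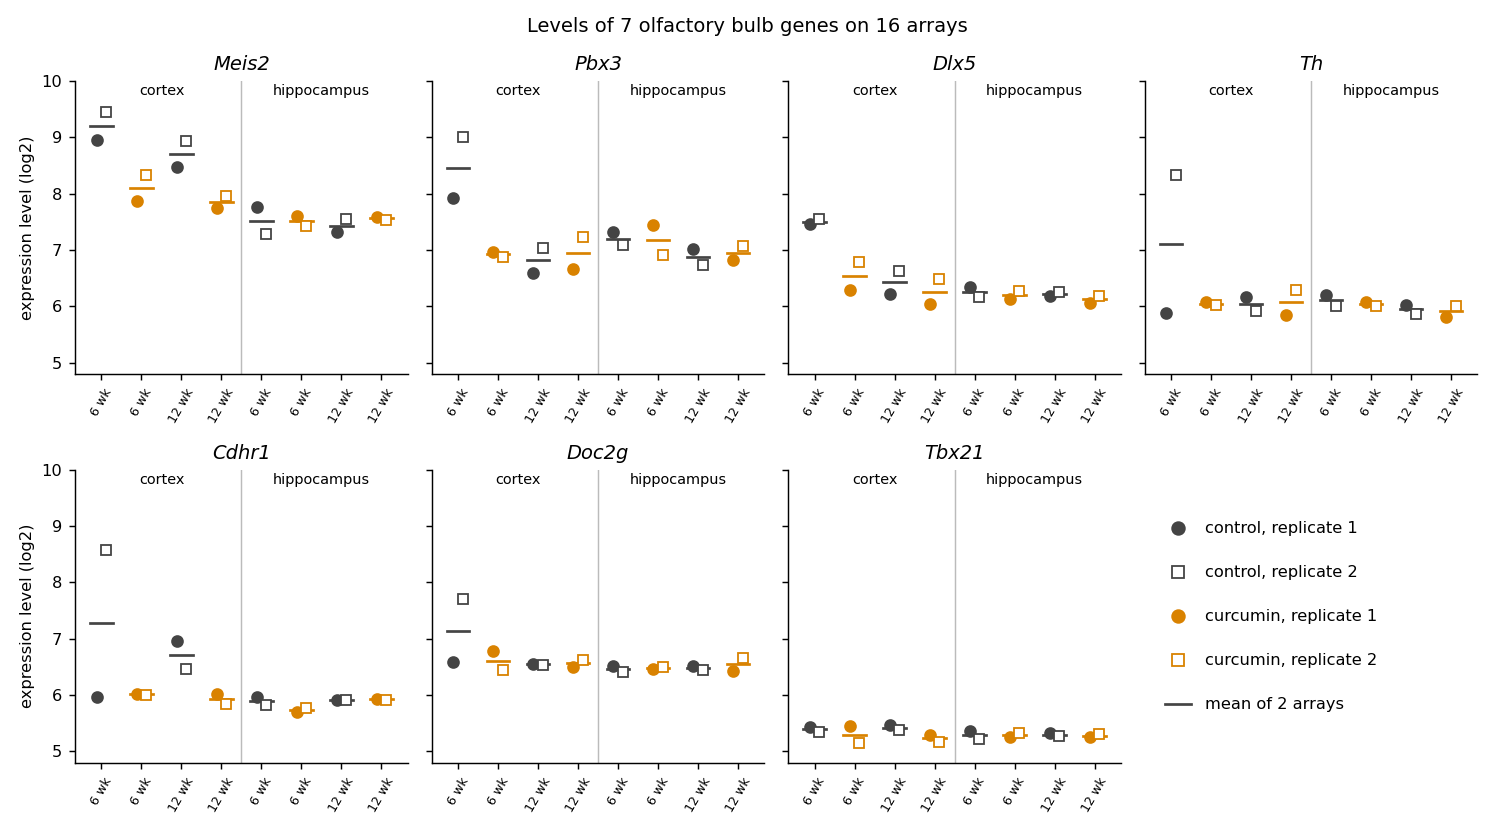
Log2 level of each of 7 genes (panels) on the 16 arrays, by tissue, duration (weeks) and diet; circles are replicate 1, squares replicate 2 and lines the mean of the 2 arrays. Cdhr1, Th, Pbx3 and Doc2g are highest on replicate 2 of the 6-week control cortex, at 8.58, 8.33, 9.003 and 7.70, while Tbx21 stays between 5.15 and 5.46 everywhere.

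A single array held the highest cortical level of 6 of the 7 genes: replicate 2 of the control cortex at 6 weeks. Tbx21 was the exception, highest on replicate 1 of the control cortex at 12 weeks (5.46). Of the other 6 genes, Meis2, Pbx3 and Dlx5 read higher on both control arrays of the 6-week cortex than on the other 6 cortical arrays. For Meis2 the gap was small, with 8.95 on replicate 1 against 8.93 on a 12-week control array. Th, Cdhr1 and Doc2g stood above those 6 arrays on replicate 2 alone, although Cdhr1 was also raised on the 12-week controls.

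Among the interneuron genes, Dlx5 (chr4:35965579-35969973) read 7.46 and 7.55 on the 2 control arrays of the 6-week cortex, 6.29 and 6.78 on the curcumin arrays, 6.21 and 6.63 on the 12-week control arrays and 6.05 and 6.48 on the 12-week curcumin arrays. The 6-week control arrays stood above the other 6 cortical arrays and differed from each other by 0.09. Meis2 (chr3:123197066-123399002) read 8.95 and 9.45 on the 6-week control arrays, 7.87 and 8.33 with curcumin, 8.48 and 8.93 on the 12-week controls and 7.74 and 7.96 with curcumin. In this gene the control arrays of both durations lay above the curcumin arrays of both durations. Pbx3 (chr3:37886241-38079956) read 7.92 and 9.003 on the 6-week control arrays, where replicate 2 was 1.09 above replicate 1. Its other 6 cortical arrays lay between 6.60 and 7.24, below both. Th (chr1:207500959-207508276), whose product is the rate-limiting enzyme of dopamine synthesis, read 5.89 on replicate 1 and 8.33 on replicate 2. The remaining 6 cortical arrays held between 5.85 and 6.29, so that replicate 1 sat among them and replicate 2 was 2.04 above the next highest.

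The mitral and tufted cell genes did not move as a group. Cdhr1 (chr16:12863696-12883579) read 5.96 on replicate 1 and 8.58 on replicate 2 of the 6-week controls, a difference of 2.62. It also read 6.96 and 6.47 on the 12-week control arrays, above the 6.02, 6.00, 6.02 and 5.85 of the 4 curcumin arrays. Cdhr1 was thus raised on 3 of the 4 control arrays of the cortex and near its hippocampal range (5.70 to 5.96) on the fourth. Doc2g (chr1:210724868-210729352) read 6.58 and 7.70 on the 6-week control arrays, with the other 6 cortical arrays between 6.44 and 6.78. Only replicate 2 stood apart. Tbx21 (chr10:82578751-82595253) read 5.44 and 5.34 there and between 5.15 and 5.46 on the other 6. Tbx21, the only T-box factor of the list that could be measured, was thus flat on the array where Cdhr1 and Doc2g were highest. Its cluster is the dimmest of the 7 (percentile 25.4 of all clusters), so a flat reading does not show whether its RNA changed.

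**Figure D2:**
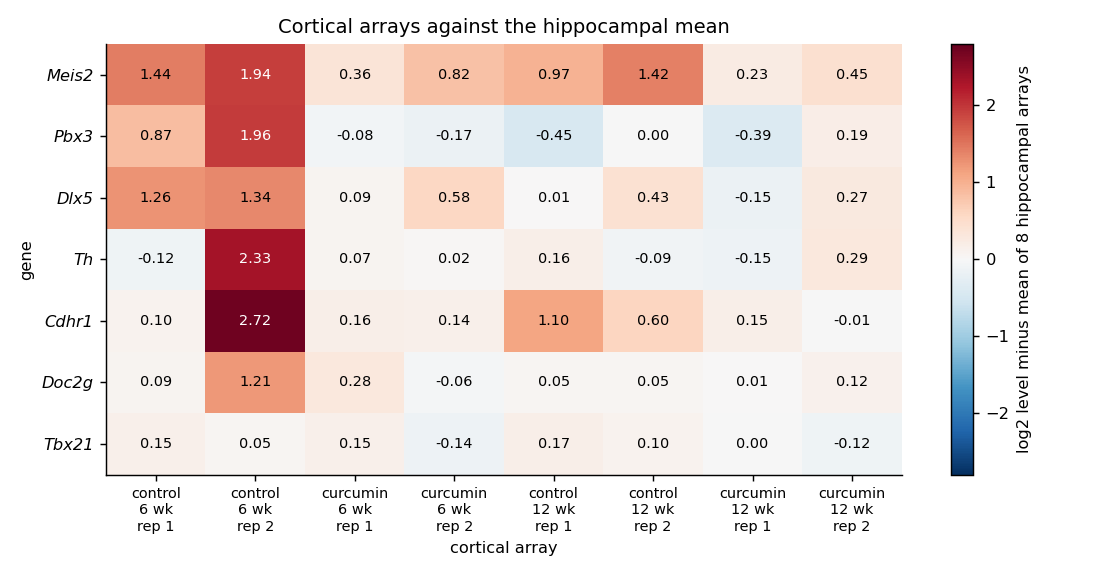
Log2 level of each gene on each of the 8 cortical arrays minus its mean over the 8 hippocampal arrays; red is higher in cortex, blue lower. Replicate 2 of the 6-week controls is above the hippocampal mean by 2.72 for Cdhr1, 2.33 for Th, 1.96 for Pbx3 and 1.94 for Meis2, and replicate 1 by 1.44 for Meis2 and 1.26 for Dlx5 but by 0.10 for Cdhr1.

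The 2 control arrays of the 6-week cortex differed at least 2-fold, with replicate 2 higher, for 4 of the 7 genes (Cdhr1, Th, Doc2g and Pbx3), against 0.377% of all clusters. In the other 7 groups 0 of the 7 genes differed 2-fold between the arrays of a group, and the largest such difference of a group was at most 0.58. A lead over every other cortical array as large as that of Th was seen on replicate 2 for 4 of the 27342 clusters, Th included. The corresponding counts were 12 for Cdhr1, 29 for Pbx3 and 53 for Doc2g, each with the gene itself. Genes of the list were chosen with the 6-week cortex known, so nothing is read from this share or these counts. With each gene centred on its cortical mean, the average of the 7 genes was 1.24 on replicate 2 and 0.13 on replicate 1 of the 6-week controls, and between -0.45 and -0.05 on the other 6 cortical arrays. It spanned 1.69 over the 8 cortical arrays, 0.58 without replicate 2, and 0.23 over the 8 hippocampal arrays.

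Other genes of the bulb were read from lists of 14 tissues and cell types. Of 11 further bulb interneuron genes with a cluster, 8 were highest in cortex on replicate 2 of the 6-week controls, and the centred mean of the list was 0.71 there and -0.23 to 0.09 on the other 7 arrays. Calb2, the calcium-binding protein calretinin of granule and periglomerular cells, read 8.83 on replicate 2, 7.11 on replicate 1 and 6.29 to 7.20 on the other 6. Dlx1, another homeodomain factor of inhibitory neurons, read 7.68, 6.41 and 6.47 to 6.74 in the same order. Ddc, the enzyme after Th in dopamine synthesis, read 6.60, 6.04 and 5.73 to 6.08. Gch1, which makes the cofactor of Th, read 5.44, 5.46 and 5.28 to 5.51, and did not stand apart.

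Of 5 further mitral and tufted cell genes, 3 were highest in cortex on replicate 2. Slc17a6, the vesicular glutamate transporter VGLUT2, read 7.75 there, 6.06 on replicate 1 and 5.60 to 6.89 on the other 6. Reln, the secreted protein reelin, read 9.14, 7.97 and 8.22 to 8.59. On the hippocampal arrays Slc17a6 read 6.44 to 7.11 and Reln 8.01 to 8.67. Lhx1 and Lhx5, homeodomain factors of these cells, differed between the 2 control arrays by 0.09 and -0.07. Both are dim, at 5.73 and 5.38 on replicate 2, below the array medians of 6.35 to 6.44. Their flat readings therefore do not show whether their RNA changed. Of 5 genes of the olfactory nerve layer, where the sensory axons and their ensheathing glia lie, 3 were highest on replicate 2. Omp, the olfactory marker protein of the sensory neurons, read 7.14 there, 5.99 on replicate 1 and 5.93 to 6.12 on the other 6 cortical arrays. Dcx, doublecortin of migrating neuroblasts, read 9.04, 7.54 and 7.56 to 7.96, while 3 other neuroblast genes differed between the control arrays by -0.26 to 0.08.

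**Figure D3:**
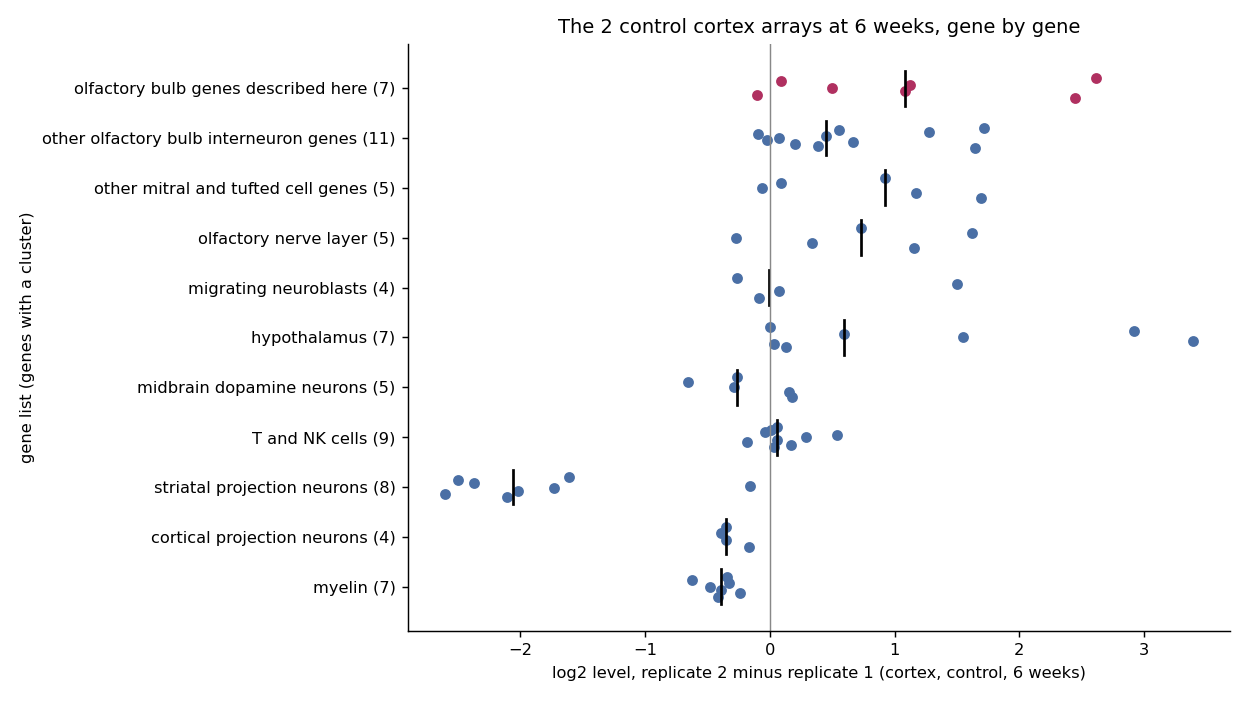
Log2 level on replicate 2 minus replicate 1 of the control cortex at 6 weeks for each gene (point) of 11 lists, with the median of the list as a black bar; positive values are higher on replicate 2. The medians are 1.09 for the 7 olfactory bulb genes, 0.93 for other mitral and tufted cell genes, 0.45 for other bulb interneuron genes and -2.06 for striatal projection neurons.

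Some markers of other regions moved with the same arrays. Of 7 hypothalamic genes, 3 were highest in cortex on replicate 2, and the list's centred mean was 0.98 there, 0.44 on replicate 2 of the 12-week curcumin cortex and -0.32 to -0.12 on the other 6. Pmch, the precursor of melanin-concentrating hormone, read 8.39 on replicate 2 and 4.91 to 5.14 on the other 7 cortical arrays. Avp, the vasopressin precursor, read 8.67 on replicate 2 and 5.75 to 8.14 on the others. Hcrt, the third, read 6.60 on replicate 2 and 6.00 on replicate 1. Oxt read 8.06 on replicate 2 but up to 8.78 on another cortical array. Pomc, Agrp and Sim1 differed between the 2 control arrays by only 0.03, -0.002 and 0.13. Both red cell genes were highest there too, with a centred mean of 1.14, and so were both thalamic genes found, with 0.51. The 4 cortical projection neuron genes found were lowest on that array for each gene, and their centred mean was -0.72 there, -0.40 on replicate 1 and 0.03 to 0.39 on the other 6. The midbrain dopamine list, which shares Th's transmitter, had a centred mean of -0.18 on replicate 2 and -0.04 to 0.10 elsewhere. Its 5 genes did not move together, with 2 higher on replicate 2 than on replicate 1 and 3 lower. Slc6a3 read 5.85 on replicate 2, 5.67 on replicate 1 and 5.28 to 5.81 on the other 6. Nr4a2 read 7.50, 8.16 and 7.66 to 9.09 in the same order. The T and NK cell list, which bears on Tbx21, lay between -0.07 and 0.09 on all 8. Its mean level of 5.52 to 5.68 lay below the array medians, so a flat mean does not show whether these cells changed. Within it Cd4 read 7.25 on replicate 2, 6.71 on replicate 1 and 6.07 to 7.65 on the other 6.

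Replicate 1 of the same group carried another set. All 8 striatal projection neuron genes found were highest in cortex on replicate 1, with a centred mean of 1.35 against -0.54 on replicate 2. Drd1, the D1 dopamine receptor, read 9.06 on replicate 1 and 6.56 on replicate 2, and Drd2 read 8.38 and 6.01. All 7 myelin genes were highest on replicate 1 as well, with a centred mean of 0.72, and stood at 0.31 on replicate 2. Replicate 1, high in Meis2, Pbx3 and Dlx5 but not in Th, Cdhr1 and Doc2g, had the highest mean of the striatal list. On replicate 2, where the striatal mean was -0.54, Meis2, Pbx3 and Dlx5 read 9.45, 9.003 and 7.55. Replicate 2 of the 12-week controls had a striatal mean of 0.70, with Meis2 at 8.93, Pbx3 at 7.04 and Dlx5 at 6.63. Replicate 2 of the 6-week controls was high in all 6 genes. It had the highest means of the lists of other bulb, nerve layer, neuroblast, hypothalamic, thalamic and red cell genes. In the neuroblast list 1 of 4 genes was highest there, and in the hypothalamic list 3 of 7. The choroid plexus list lay between -0.22 and 0.18 on the 8 arrays. Both dentate gyrus genes were highest on replicate 1, with a centred mean of 0.41, and stood at 0.18 on replicate 2. The part of these markers in the levels of the 7 genes was not tested.

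**Figure D4:**
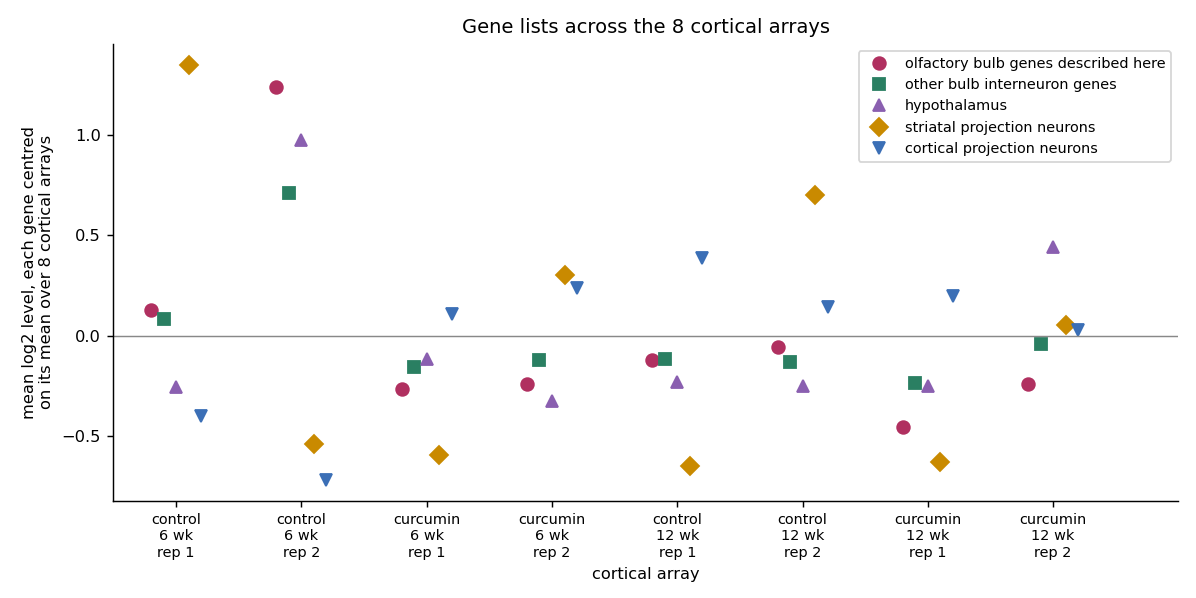
Mean log2 level of 5 gene lists on each of the 8 cortical arrays, each gene centred on its mean over those arrays. The olfactory bulb genes (1.24), other bulb interneuron genes (0.71) and hypothalamic genes (0.98) are highest on replicate 2 of the 6-week controls, and the striatal genes (1.35) on replicate 1.

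After 6 weeks of curcumin the cortical means of all 7 genes were below the control means. The differences, curcumin minus control on the log2 scale, were -1.54 for Pbx3, -1.26 for Cdhr1, -1.10 for Meis2, -1.06 for Th, -0.97 for Dlx5, -0.53 for Doc2g and -0.09 for Tbx21. The median was -1.06, against 0.0016 over all clusters. Of the 7 genes, 5 reached the study's limit of at most 0.66-fold of control, as did 0.761% of all clusters. Both curcumin arrays lay below both control arrays for Meis2, Pbx3 and Dlx5, 3 of 7, against 17.4% of all clusters. Since this contrast chose genes of the list, nothing is read from these shares. In the same contrast the median difference was -0.93 for red cell genes (2 of 2 negative), -0.84 for myelin genes (7 of 7), -0.53 for striatal genes (8 of 8), -0.51 for the other bulb interneuron genes (9 of 11), -0.41 for the nerve layer (5 of 5), -0.31 for hypothalamic genes (5 of 7), -0.19 for the other mitral and tufted cell genes (5 of 5) and 0.81 for cortical projection neuron genes (0 of 4). Their part in the differences of the 7 genes was not tested.

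These differences depended on which control array was used. Against replicate 1 alone they were 0.16 for Th, 0.05 for Cdhr1 and 0.03 for Doc2g, and -0.93 for Dlx5, -0.85 for Meis2 and -0.996 for Pbx3. Against replicate 2 alone they were -2.29 for Th, -2.57 for Cdhr1 and -1.09 for Doc2g. The median of the 7 was -0.14 against replicate 1 and -1.35 against replicate 2. Th, Cdhr1 and Doc2g were thus lower after 6 weeks against 1 control array and not the other, while Dlx5, Meis2 and Pbx3 were lower against each.

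**Figure D5:**
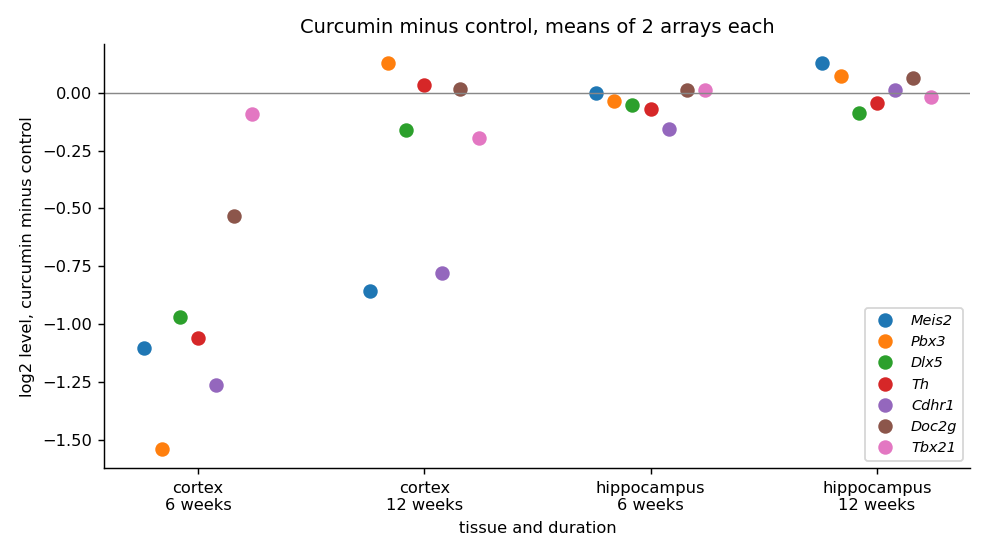
Difference of mean log2 level, curcumin minus control, for each of 7 genes in the 4 combinations of tissue and duration; each mean is of 2 arrays and no error is drawn. In the cortex at 6 weeks the points run from -1.54 (Pbx3) to -0.09 (Tbx21), in the cortex at 12 weeks only Meis2 (-0.85) and Cdhr1 (-0.78) lie far below 0, and in the hippocampus all lie between -0.16 and 0.13.

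The list of the study that led to these genes came from the 6-week cortex. The 12-week cortex was tested with limma, adjusted over all clusters, but the genes were taken up with its earlier results known as well. Meis2 was lower on both curcumin arrays (7.74 and 7.96) than on both controls (8.48 and 8.93), a difference of -0.85 (SE 0.22, adjusted p = 0.0620). Cdhr1 was also lower on both (6.02 and 5.85 against 6.96 and 6.47), at -0.78 (SE 0.57, adjusted p = 0.637), with a standard error that holds the gap between the 6-week control arrays. Without either of the 6-week control cortex arrays the adjusted p of Cdhr1 was 0.0124 and that of Meis2 0.0469, within ranges over all alternatives of 0.0124 to 0.950 and 0.0418 to 0.330. The other differences were -0.19 for Tbx21 (adjusted p = 0.365), -0.16 for Dlx5 (0.811), 0.13 for Pbx3 (0.937), 0.03 for Th (0.993) and 0.02 for Doc2g (0.993). With all 16 arrays, 0 of the 7 genes passed an adjusted p of 0.05 in limma, against 3.24% of all clusters. At an unadjusted p under 0.05 it was Meis2 alone, against 15.1% of clusters. Both curcumin arrays lay below both controls for Meis2, Cdhr1 and Tbx21, 3 of 7, against 22.0% of all clusters. The striatal list stood at -0.65 and 0.70 on the 12-week control arrays and -0.63 and 0.05 on the curcumin arrays, and the bulb interneuron list at -0.12 and -0.13 against -0.23 and -0.04. The list of other mitral and tufted cell genes stood at -0.12 and -0.16 on the controls and -0.27 and 0.41 on the curcumin arrays, with a median difference of 0.08. Their part in the Meis2 and Cdhr1 differences was not tested.

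In the hippocampus no difference by diet was detected in the 7 genes. After 6 weeks the differences ran from -0.16 (Cdhr1) to 0.01, and after 12 weeks from -0.09 (Dlx5) to 0.13 (Meis2). In limma 0 of 7 genes and 0% of all clusters passed at 6 weeks, and 0 of 7 and 0.00366% at 12 weeks. At an unadjusted p under 0.05 the counts were again 0 of 7 at both durations, with 555 clusters (2.03%) and 1396 clusters (5.11%). Both curcumin arrays were below both controls for Cdhr1 alone at 6 weeks (17.7% of clusters) and for 0 of 7 at 12 weeks (14.7% of clusters). The difference between the 2 durations in the effect of diet passed for 0 of 7 genes and 0% of clusters, with 0 of 7 genes and 939 clusters (3.43%) at an unadjusted p under 0.05. Between the control hippocampi of 12 and 6 weeks 0 of 7 genes passed, against 4.27% of clusters, with 0 of 7 genes and 17.5% of clusters at an unadjusted p under 0.05. Pbx3 had the largest difference there, at -0.34 (SE 0.32, adjusted p = 0.682).

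Between tissues, Meis2 was the gene that passed the test, higher in cortex. At 12 weeks its control level was 8.48 and 8.93 in cortex and 7.31 and 7.56 in hippocampus, a difference of 1.27 (SE 0.22, limma adjusted p = 0.0171). It was the 1 gene of 7 to pass, against 1.61% of all clusters. The call was lost, at adjusted p from 0.0731 to 0.134, without either control hippocampus array of 12 weeks, without replicate 2 of the control cortex of 12 weeks, and when only the arrays of the 2 groups were fitted. It was also lost, at adjusted p = 0.0572, when same-numbered cortex and hippocampus arrays of a diet and duration were taken as a pair from the same rats. Over all alternatives the adjusted p ran from 0.00626 to 0.134. Cdhr1 was 0.80 higher in cortex (SE 0.57, adjusted p = 0.736). In the curcumin groups of 12 weeks the Meis2 difference was 0.29 (SE 0.22, adjusted p = 0.580), and 0 of 7 genes passed in limma, against 6.65% of clusters, with 0 of 7 genes and 19.0% of clusters at an unadjusted p under 0.05. The test of whether the effect of diet differed between cortex and hippocampus at 12 weeks gave -0.98 for Meis2 (SE 0.31, adjusted p = 0.238) and passed for 0 of 7 genes, against 0.19% of clusters. Meis2 alone was at an unadjusted p under 0.05 in that test, as were 10.6% of clusters.

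Set against the hippocampus array by array, replicate 2 of the 6-week control cortex exceeded all 8 hippocampal arrays in 6 of 7 genes (18.7% of all clusters did so) and replicate 1 in 5 (15.3%). The 6-week curcumin arrays did so in 4 (17.2%) and 3 (13.1%), the 12-week control arrays in 3 (12.6%) and 4 (9.33%), and the 12-week curcumin arrays in 1 (14.4%) and 3 (17.7%). Since the 6-week cortex chose genes of the list, nothing is read from the counts of its arrays. By gene, Meis2 and Cdhr1 exceeded the hippocampal maximum on 7 of the 8 cortical arrays, Dlx5 on 5, Tbx21 on 4, and Pbx3, Th and Doc2g on 2. For Tbx21 the excess was at most 0.10.

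Across the 8 cortical arrays the genes other than Tbx21 correlated with each other at r = 0.48 to 0.97, and Tbx21 with them at -0.04 to 0.30. Over the 7 arrays without replicate 2 of the 6-week controls these ranges were -0.47 to 0.88 and -0.27 to 0.54. Th, Doc2g and Cdhr1 correlated at r = 0.88 to 0.97 with each other, and at -0.17 to 0.31 over the 7 arrays without replicate 2 of the 6-week controls. Pbx3 and Dlx5 correlated at 0.89, and at 0.88 without it, Meis2 and Dlx5 at 0.84 and 0.73, and Meis2 and Pbx3 at 0.76 and 0.51. Pbx3 also correlated with Doc2g at 0.86 and with Th at 0.83 over the 8 arrays, and at 0.21 and -0.16 without that array. These arrays share groups and pools, so the values are descriptions. Among 9136 clusters with 1 symbol and at least median brightness, the gene most like the average of the 7 over the 8 arrays was Zeb1, at r = 0.98 (0.93 without that array). Akap13, Slc43a3, Pax6, H3f3b, A2m, Kank3, Macroh2a1, Pcdh18 and Sox4 followed, down to 0.95. Without that array these ran from 0.93 (A2m) down to 0.56 (Pcdh18). Neurl1 was the most opposed, at r = -0.99 (-0.91 without that array), followed by Smim26, Cspg5, Chchd6, Gdap1l1, Apba2, Sema4f, Faim2, Tfcp2 and Phyhip, up to -0.96. Those that followed Neurl1 ran from -0.98 (Chchd6) to -0.63 (Faim2) without that array. Pax6, a transcription factor needed for the dopamine cells of the bulb, is the only gene of these 20 that is also on the list of further bulb interneuron genes. It read 7.16 on replicate 2, 6.49 on replicate 1 and 6.10 to 6.45 on the other 6 cortical arrays.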

How the data were processed

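Rat RNA of cortex and hippocampus was measured on 16 Affymetrix arrays. The deposited values are log2 expression levels, which the authors made with Affymetrix Expression Console, RMA and GeneSpring (versions not given in the sources used here). The table has 27342 transcript clusters, 0 missing values and levels from 4.33 to 12.87. RMA leaves no 0, and the number of arrays limits the precision. The methods name an exon array, although the annotation supplied for these clusters is that of a gene array, and which was used is not settled. No probe-level data were used here.

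Genes were taken by exact symbol from the platform annotation (323 clusters list several symbols and 11922 none), with positions from RefSeq (GRCr8). The genes, the 14 marker lists (77 of 98 genes found) and the tests were chosen with earlier results of these data known. Named genes are the 8 genes, the 10 clusters most and the 10 least correlated with their cortical average, and list genes on which a result turns.

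The 8 group means were fitted in limma 3.58.1 (R 4.3.3) without covariates, with 8 residual degrees of freedom and Benjamini-Hochberg adjustment over all clusters, called under 0.05. The fit was tested on simulated data. Alternatives were quantile normalization, a filter on clusters whose mean lies under the 0.25 quantile, a variance trend, array weights, a replicate block over all arrays or within each diet and duration, fits of the groups compared only, the study's fold limits (1.5 and 0.66) and each array left out in turn. Python 3.11.15, pandas 2.3.3 and matplotlib 3.10.9 were used for the rest.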

Additional observations from a re-analysis of the deposited data

How the results depend on the processing

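Of 204 recomputed counts of genes passing a test, over 8 comparisons and 27 settings, 191 kept the main count. In the 12-week cortex, curcumin against control, the count of 0 became 1 (Meis2, adjusted p = 0.0418) without the dimmest clusters (mean under the 0.25 quantile) and 2 under the study's fold limits without a test, and with an array left out it ranged from 0 to 2. Both values of 2 with an array left out came from the 6-week control cortex arrays and were Meis2 and Cdhr1. Leaving either out gives the same fit, because the group then adds nothing to the spread. For the 12-week control cortex against hippocampus the count of 1 became 0 with only the groups compared, 2 under the fold limits, and 0 to 2 with an array left out, 2 again without either 6-week control cortex array (Meis2, and Cdhr1 at adjusted p = 0.0132). The difference of the diet effect between tissues at 12 weeks went from 0 to 2 under the fold limits. The other 5 comparisons stayed at 0 in every setting run. A group left with 1 array was assumed to vary like the others.

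The range of the 7-gene average over the cortical arrays was 1.69, and 0.58 to 1.69 with an array left out, 0.58 without replicate 2 of the 6-week controls. The median difference of the 7 genes at 6 weeks in cortex was -1.06, and -1.35 to -0.14 with an array left out, -0.14 without the same array. Under every alternative run, the differences of Meis2 and Cdhr1 kept their direction for curcumin against control in the 12-week cortex and for the 12-week control cortex against hippocampus. Only the normalizations and leaving out an array of the groups compared could change these differences, since the other alternatives change the error alone.

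Both tissues of a group came from the same rats, but no source used here says that equal replicate numbers mark the same pool. Deviations of same-numbered arrays correlated at -0.15 to 0.16 between tissues and at -0.43 to 0.04 between diets. With the replicate block the 12-week control cortex against hippocampus again called 1 gene (Meis2, adjusted p = 0.0190) and the other comparisons 0. With a replicate block within each diet and duration, also chosen after seeing the data, that count was 0 (Meis2, adjusted p = 0.0572), and the other comparisons between tissues stayed at 0. With the numbers crossed in the 12-week curcumin hippocampus, chosen after seeing the data, the count there was 0.

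With 2 arrays a group and 8 residual degrees of freedom, the standard error of a difference was 0.09 for Tbx21 but 0.54 for Th and 0.57 for Cdhr1, whose spread comes mostly from the 6-week control cortex.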
